A study of Rattus norvegicus with 36 samples.

Results

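The oxidative phosphorylation subunits were followed here in rat mammary gland across strain, carcinogen treatment and time. Members are probe sets of an Affymetrix rat array with a single gene symbol that names a subunit of complexes I to V. The symbols begin with Ndufa, Ndufb, Ndufc, Ndufs, Ndufv, Uqcr, Cox4i, Cox5, Cox6, Cox7, Cox8 or Atp5, or are Sdha, Sdhb, Sdhc, Sdhd or Cyc1, and the assembly factors beginning with Ndufaf were left out. This rule found 90 of 31099 probe sets, for 81 of 14218 genes with a symbol of their own. Complex I holds 37 of them, complex II 5, complex III 9, complex IV 19 and complex V 20. Ndufa4 and Ndufa4l2 are counted with complex IV, where the Ndufa4 protein sits. The rule also takes in proteins that are not subunits in the strict sense, namely the ATP synthase inhibitor Atp5if1 and the supercomplex factor Cox7a2l.

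The arrays came from mammary glands of the rat strains Copenhagen (Cop) and Fischer (F344), whose animals were given N-nitrosomethylurea (NMU) or saline vehicle at 55 days of age. NMU is an alkylating carcinogen that induces mammary tumours in F344 rats, while Cop rats are resistant. Glands were taken 6 h, 1 d or 30 d after the injection, with 3 arrays in each of the 12 groups and 36 arrays in all. The labels name no transgene or other allele, call the replicates biological, and do not say whether each array is a separate animal, so p-values measure only the spread between these samples. Whole glands hold epithelium, fat and other tissue, so fewer cells of a type and less RNA per cell cannot be told apart. Of the listed markers on the platform, all 20 luminal epithelial, all 17 adipocyte and all 7 milk genes passed the filter on dim probe sets. So did 28 of 29 skeletal muscle, all 9 basal epithelial, all 13 lymphocyte and 4 of 9 brown fat markers. The filter kept 20749 of 31099 probe sets, so passing it does not identify the tissue.

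Mitochondria make most of the ATP of an oxidative cell by passing electrons from NADH (complex I) and succinate (complex II) through complex III and cytochrome c to oxygen at complex IV. The protons pumped on the way drive ATP synthase, complex V. Most subunits are encoded in the nucleus, and several subunits of complex IV exist as a form made in most tissues and a form made mainly in heart and skeletal muscle, such as Cox6a1 and Cox6a2 or Cox8a and Cox8b. In the mammary gland, fat cells and secretory epithelium both contain mitochondria.

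Promoters of 4 members are printed because these genes mark the contrast that runs through the results. Sdhd and Cox8a are among the many subunit genes that differed moderately between groups, and Cox8b and Cox6a2 are the muscle isoforms, which varied far more. Each run is the 250 bases before the transcription start, 5′ to 3′, from RefSeq on the assembly GRCr8. Sdhd lies at chr8:59850642-59850891, Cox8a at chr1:213833624-213833873, Cox8b at chr1:205408274-205408523 and Cox6a2 at chr1:192219717-192219966, all on the minus strand. Capitals mark the ETS core CCGGAAG, read on either strand, in Sdhd and Cox8a, the letters TATAAA in Cox8b and the MEF2-type letters CTAAAAATA in Cox6a2.
Sdhd: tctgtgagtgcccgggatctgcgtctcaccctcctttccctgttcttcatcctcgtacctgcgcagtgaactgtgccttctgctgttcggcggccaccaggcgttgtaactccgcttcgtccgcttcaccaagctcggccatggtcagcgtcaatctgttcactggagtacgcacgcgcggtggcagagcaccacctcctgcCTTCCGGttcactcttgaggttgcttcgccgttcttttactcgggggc
Cox8a: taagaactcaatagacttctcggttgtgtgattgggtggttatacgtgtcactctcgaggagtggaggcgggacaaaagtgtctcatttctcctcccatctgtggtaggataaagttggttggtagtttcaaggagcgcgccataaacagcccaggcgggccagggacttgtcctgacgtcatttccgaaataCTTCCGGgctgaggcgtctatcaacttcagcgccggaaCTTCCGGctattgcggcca
Cox8b: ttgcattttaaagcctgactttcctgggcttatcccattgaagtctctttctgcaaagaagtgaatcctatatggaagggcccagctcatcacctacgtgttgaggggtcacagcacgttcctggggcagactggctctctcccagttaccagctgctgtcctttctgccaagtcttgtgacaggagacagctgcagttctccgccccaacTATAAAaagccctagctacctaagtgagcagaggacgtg
Cox6a2: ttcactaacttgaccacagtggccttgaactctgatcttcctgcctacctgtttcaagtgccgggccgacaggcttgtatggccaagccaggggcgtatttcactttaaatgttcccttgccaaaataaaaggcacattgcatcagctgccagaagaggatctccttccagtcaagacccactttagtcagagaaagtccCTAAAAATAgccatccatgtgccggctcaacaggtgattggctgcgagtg

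RefSeq promoters of this length were matched to 72 of the 81 member genes. On either strand, CCGGAAG stood in 19 of these 72 promoters (26.4%) and in 7.74% of all 27457 promoters. The NRF1-type palindrome stood in 3 (4.2%), those of Atp5me, Atp5po and Ndufa11, against 0.849% of all. Its longer form stood only in that of Ndufa11 among the members (1.4%, against 0.178% of all). The ERR element TCAAGGTCA stood in 1 (1.4%), that of Atp5mc3, against 0.368% of all. CTAAAAATA stood in that of Cox6a2 only among the members (1.4%, against 0.463% of all), TATAAA in 8 (11.1%, against 13.1%) and CCAAT in 24 (33.3%, against 34.3%). No match of one motif overlapped a match of another in the member promoters, apart from the longer NRF1-type form, which contains the shorter. These counts describe letters in a window and not binding.

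Of the 90 probe sets, 86 for 79 genes passed the filter and were tested. The 4 that did not pass were those of Cox7b2, of the pseudogene Cox6c-ps1, and second probe sets of Atp5if1 and Ndufa9. Values are the deposited log2 expression values, and a gene with several probe sets is shown by the tested one of highest mean. Over the 36 arrays, Cox6a2 ranged from 4.56 to 10.98 and Cox8b from 4.73 to 10.28. Cox5a, on a dim probe set, ranged from 5.63 to 8.60. The other 83 tested probe sets had SDs over the arrays between 0.129 and 0.572.

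A score was formed for each array as the mean deviation of 77 subunit genes from their own means, leaving out Cox6a2 and Cox8b, an exclusion chosen after their values were seen. F344 control glands stood at 0.26 ± 0.031 (SD, n = 3) at 6 h and 0.38 ± 0.075 (SD, n = 3) at 1 d, and at -0.12 ± 0.16 (SD, n = 3) at 30 d. Cop control glands stood at -0.16 ± 0.067 (SD, n = 3), 0.09 ± 0.11 (SD, n = 3) and -0.16 ± 0.061 (SD, n = 3) at the same times. Among controls the early F344 glands were the highest, and at 30 d the strains stood within their SDs of each other. After NMU the F344 glands stood at 0.27 ± 0.064, 0.26 ± 0.10 and -0.25 ± 0.052 (SD, n = 3 each), and the Cop glands at -0.20 ± 0.018, -0.0034 ± 0.096 and -0.37 ± 0.13 (SD, n = 3 each).

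**Figure D1:**
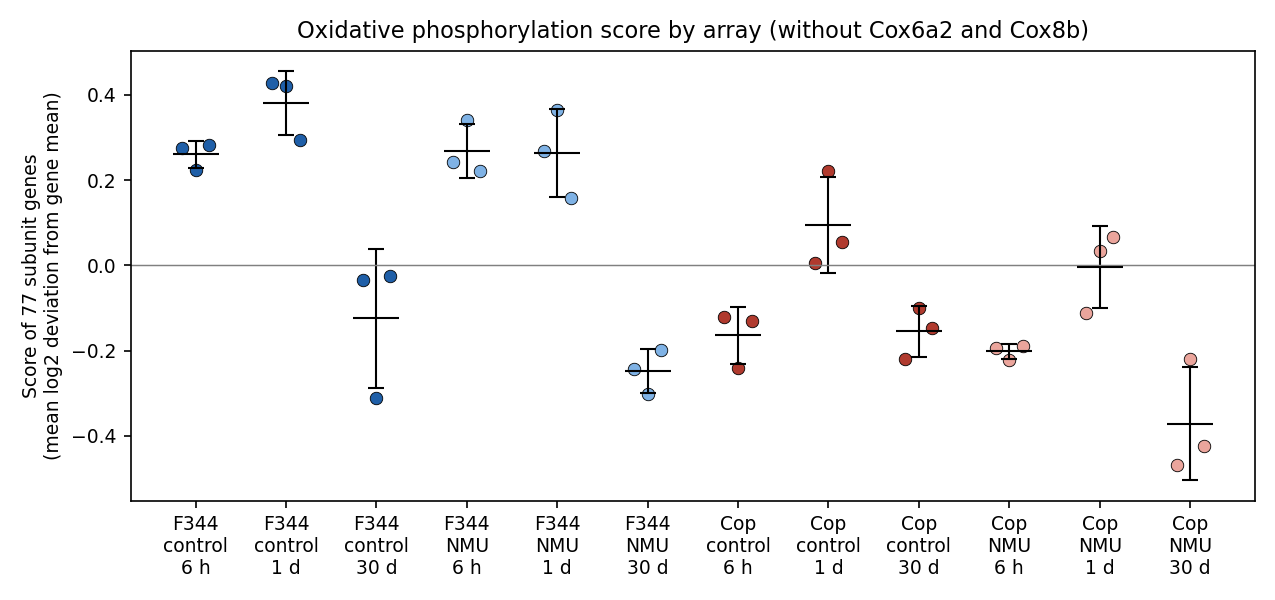
Score of 77 oxidative phosphorylation subunit genes (mean log2 deviation from each gene's mean over 36 arrays, without Cox6a2 and Cox8b) on the vertical axis, for 12 groups of strain, treatment and time; points are arrays, long bars the mean and whiskers the SD of 3 arrays. The 6 F344 control arrays at 6 h and 1 d lie above 0.22, as do most F344 NMU arrays at these times and Cop control replicate 2 at 1 d (0.2215). All 12 arrays at 30 d lie below 0.

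Subunit transcripts were lower in Cop than in F344 control glands. Over the 3 times, 66 of the 86 tested probe sets (64 genes) were lower in Cop and 0 higher by limma at an adjusted p under 0.05. The background was 12.9% of all probe sets lower and 13.1% higher, and the members' median difference was -0.25 (log2, Cop minus F344) against 0.02 over all probe sets. All 5 complex II and all 9 complex III probe sets were called lower, with 30 of 36 in complex I, 10 of 17 in complex IV and 12 of 19 in complex V. Differences were mostly modest, and only the muscle isoforms Cox6a2 (-2.21, SE 0.61, limma adjusted p = 0.00889) and Cox8b (-2.13, SE 0.60, limma adjusted p = 0.0102) exceeded 0.57 in size.

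Ndufb3, an accessory subunit of complex I, had the smallest p of the members. Its log2 values in F344 controls were 11.79, 11.61 and 11.61 at 6 h, 11.86, 11.89 and 11.76 at 1 d, and 10.83, 10.83 and 10.84 at 30 d. In Cop controls they were 11.10, 10.86 and 10.97 at 6 h, 11.07, 11.32 and 11.33 at 1 d, and 10.87, 10.71 and 10.87 at 30 d. The strains were fully separate at 6 h and 1 d and overlapped at 30 d. Averaged over the times, Ndufb3 was lower in Cop by a log2 difference of -0.44 (SE 0.051, limma adjusted p = 2.14e-07).

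Other members of complex I with large differences were the NADH-binding module subunit Ndufv2 (-0.57, SE 0.077), the iron-sulphur subunit Ndufs1 (-0.56, SE 0.070) and the acyl carrier protein Ndufab1 (-0.54, SE 0.078). Among the subunits of succinate dehydrogenase, the membrane anchor Sdhd differed most (-0.40, SE 0.056, limma adjusted p = 4.95e-06). The iron-sulphur subunit Sdhb followed at -0.33, the anchor Sdhc at -0.33 and the flavoprotein Sdha at -0.25. Cyc1, the cytochrome c1 of complex III, differed by -0.48 (SE 0.079, limma adjusted p = 3.29e-05).

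In complex IV these widely expressed isoforms differed by somewhat less than the members' median of -0.25. Cox8a differed by -0.22 (SE 0.057, limma adjusted p = 0.00514), Cox4i1 by -0.16 (SE 0.041, limma adjusted p = 0.00524), Ndufa4 by -0.21 and Cox6a1 by -0.17 (SE 0.060, limma adjusted p = 0.0402). In complex V, the peripheral stalk subunit Atp5pb differed by -0.31 (SE 0.044, limma adjusted p = 3.4e-06) and the rotor ring subunit Atp5mc3 by -0.31. The 20 probe sets that did not pass included Cox6b1, Cox6b2, Cox4i2, Cox7a1, Cox7a2l, Ndufa4l2 and both tested probe sets of the inhibitor Atp5if1. Cox7a1 was dim and flat, between 4.51 and 5.35 over the arrays.

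The strain difference lay at the early times. At 6 h alone 61 members were called lower in Cop (median -0.41, background 7.36% lower), and at 1 d alone 37 (median -0.29, background 9.35% lower). At 30 d alone 0 were called by limma (median -0.04, background 1.62% lower), and 1 of 86 had an unadjusted p under 0.05. Every Cop control array lay below every F344 control array for 74 of 86 members at 6 h (14.9% of all probe sets), for 52 at 1 d (18.4%) and for 0 at 30 d (7.11%). At 30 d alone Cox6a2 and Cox8b were even higher in Cop, by 1.38 and 1.10 with neither called, and Sdhc (0.087) and Sdha (0.01) lost their sign. The difference between early times and 30 d is tested below as the strain difference in the change. In the NMU-treated glands, which are other arrays, 64 members were lower in Cop (median -0.28, background 11.8% lower) and 1, Cox4i2, was higher (0.48, background 11% higher). Of the probe sets called in controls 92.4% were called in the same direction there, which is 93.8% of those called in NMU glands.

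**Figure D2:**
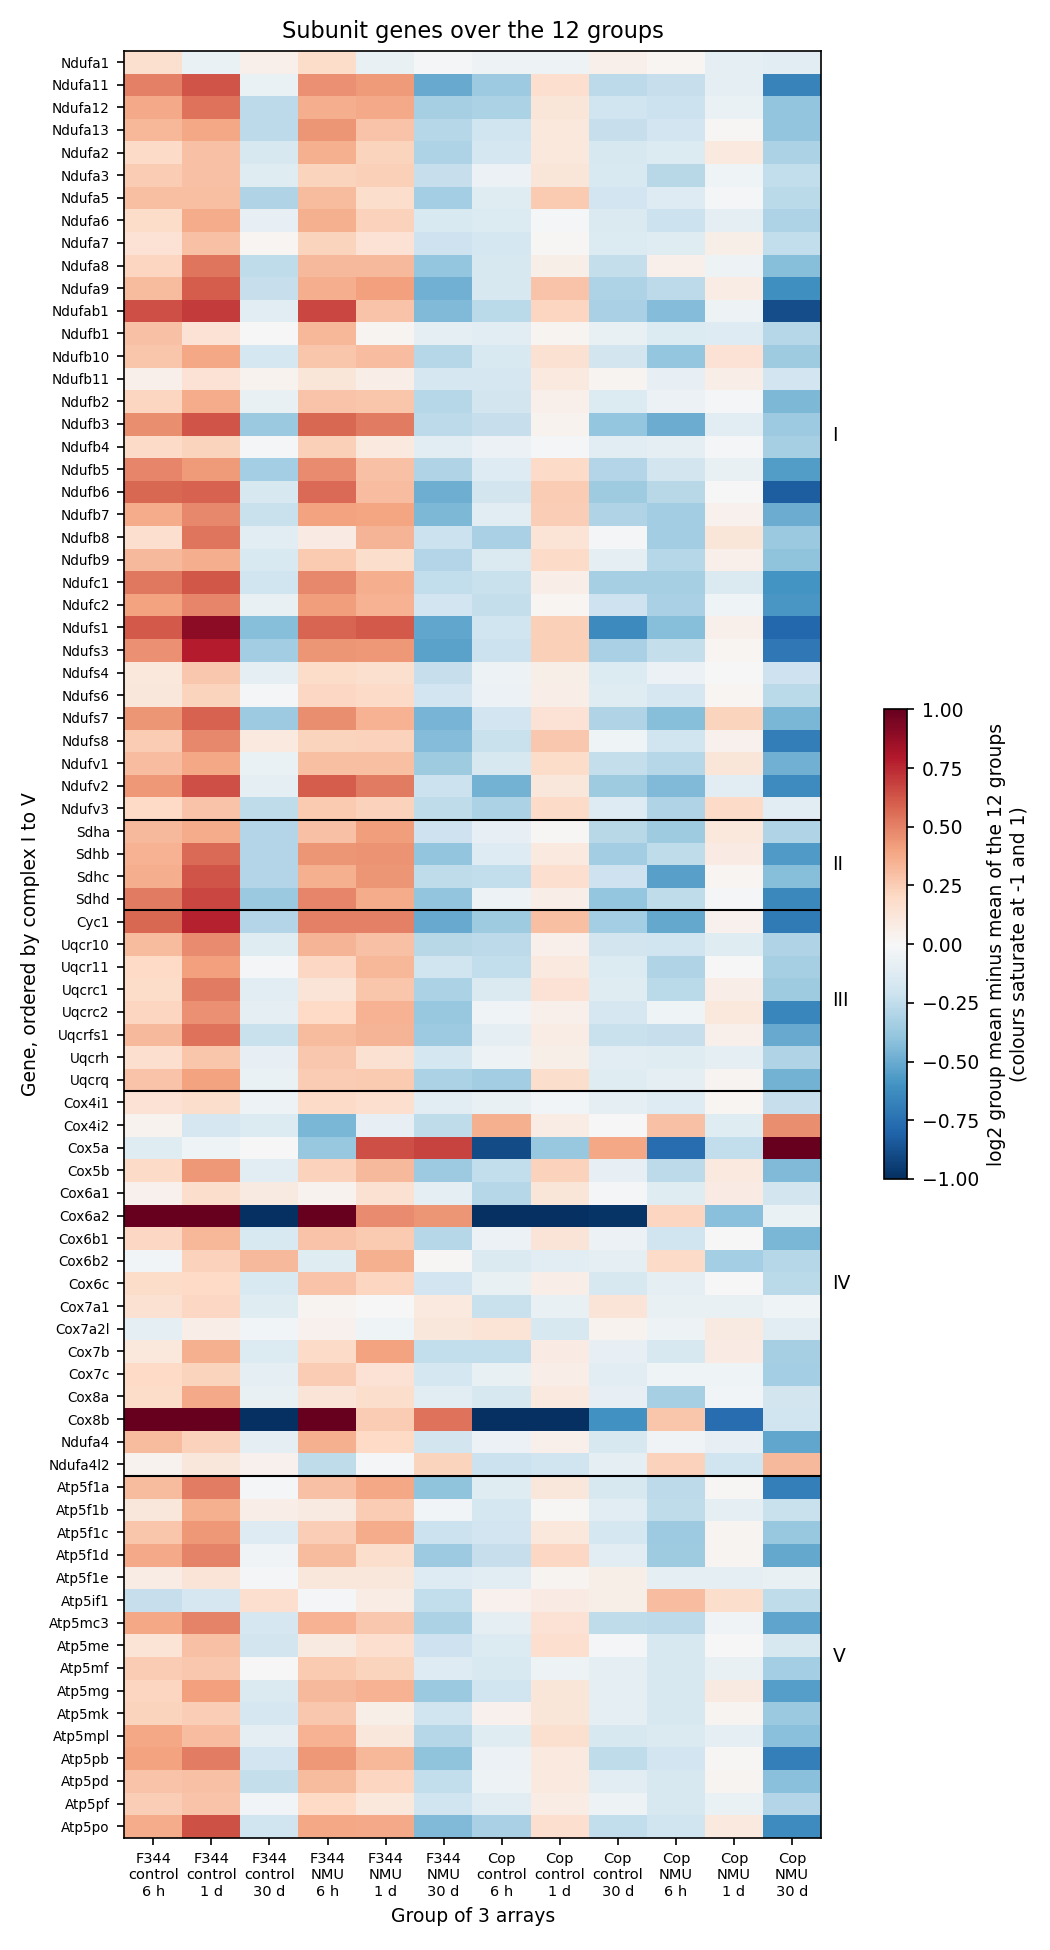
Group means of the 79 tested subunit genes (rows, ordered by complex I to V) in 12 groups of 3 arrays (columns), as log2 deviation from the mean of the 12 groups, with colours saturating at -1 and 1. Most rows are red in the F344 columns at 6 h and 1 d and blue at 30 d, and Cox6a2, Cox8b, Cox5a, Cox4i2, Ndufa4l2 and Atp5if1 follow other patterns.

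In F344 controls the subunits fell between the early times and 30 d. Against the mean of 6 h and 1 d, 66 probe sets (64 genes) were lower at 30 d and 1 was higher (limma), with a background of 13.3% lower and 13.8% higher. The median change of the members was -0.43 (log2), against 0.05 over all probe sets. Every 30 d array lay below all 6 earlier arrays for 62 of the 86 members (12.5% of all probe sets). This comparison shares the F344 controls with the strain comparison above, so the values of both are not independent.

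Ndufs1, which carries iron-sulphur clusters of the NADH dehydrogenase arm, fell most among the subunits other than the muscle isoforms. Its values were 10.40, 10.27 and 10.25 at 6 h, 10.58, 10.63 and 10.58 at 1 d, and 9.41, 9.11 and 9.31 at 30 d. All 3 arrays at 30 d were far below the earlier 6. The fall was -1.18 (SE 0.10, limma adjusted p = 1.3e-09). In complex I, Ndufs3 (-0.97, SE 0.12) and Ndufb3 (-0.92, SE 0.077, limma adjusted p = 4.93e-10) also fell.

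Complex II had the largest median change of the 5 complexes, -0.79 over its 5 probe sets, all called. Sdhd went from 11.39, 11.27 and 11.12 at 6 h and 11.49, 11.46 and 11.29 at 1 d to 10.54, 10.29 and 10.28 at 30 d. Its groups did not overlap, and the change was -0.97 (SE 0.085, limma adjusted p = 1.06e-09). Sdhc fell by 0.79, Sdhb by 0.75 and Sdha by 0.64 on the log2 scale. The medians of the other complexes were -0.50 (complex I, 29 of 36 called lower), -0.45 (complex III, 9 of 9), -0.31 (complex IV, 10 of 17) and -0.40 (complex V, 13 of 19). No test of one complex against another was made.

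In complex III, Cyc1 fell by 0.96 (SE 0.12, limma adjusted p = 4.58e-07). In complex IV these widely expressed subunits fell by about the members' median (-0.43) or less. Their changes were Cox6b1 -0.42 (SE 0.082), Ndufa4 -0.37, Cox8a -0.36 (SE 0.085, limma adjusted p = 0.00202), Cox6c -0.35 (SE 0.063) and Cox4i1 -0.21. In complex V, Atp5pb fell by 0.65 (SE 0.066, limma adjusted p = 1.69e-08) and Atp5mc3 by 0.61. The single rise was that of Atp5if1, which blocks ATP hydrolysis by the synthase. Its values were 9.25, 9.41, 9.12, 9.24, 9.28 and 9.43 before, and 9.82, 9.55 and 9.59 at 30 d, a rise of 0.37 (SE 0.089, limma adjusted p = 0.00246). A second probe set of Atp5if1 was not called (-0.09), and in NMU glands the change of the shown probe set was -0.28.

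The fall was also measured in the F344 NMU glands, where 73 members were lower at 30 d than at 6 h and 1 d (median -0.55, background 20% lower). Of the members called in controls 95.5% were called the same way there, which is 87.7% of those called in NMU glands. Every 30 d array lay below all earlier NMU arrays for 70 of 86 members (16.6% of all probe sets). Ndufs1 changed by -1.12 (SE 0.10, limma adjusted p = 1.02e-08) in those glands. Cox6a2 (-0.75) and Cox8b (-0.51) were not called there.

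In Cop controls the change to 30 d was smaller. Of the 86 probe sets 9 were called lower and 0 higher (limma), against a background of 5.67% lower and 1.84% higher, with a median of -0.12 against -0.02 over all. Every 30 d array lay below all earlier arrays for 7 members (6.77% of all probe sets). The called genes were Ndufs1, Ndufa9, Ndufb3 and Ndufb7 of complex I, Sdhd (both probe sets) and Sdhb of complex II, and Atp5pb and Atp5mc3 of complex V. Among the called members Ndufs1 moved most, from 9.50, 9.48 and 9.51 at 6 h and 9.74, 10.18 and 9.89 at 1 d to 8.98, 9.08 and 9.13 at 30 d. Its groups did not overlap, and the change was -0.65 (SE 0.10, limma adjusted p = 0.000147). Sdhd changed by -0.39 (SE 0.085, limma adjusted p = 0.00374), Sdhb by -0.33, Ndufb7 by -0.37, Ndufa9 by -0.37, Ndufb3 by -0.29, Atp5mc3 by -0.28 and Atp5pb by -0.28. Of the members not called, the largest changes were those of Cox8b (1.18, SE 0.91) and Cox5a (1.02, SE 0.44). Without Cop control replicate 2 at 1 d the count was 5, and without replicate 2 at 30 d it was also 5. Both counts are given without the share of all probe sets called in those fits.

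In the Cop NMU glands the same comparison called 48 members lower and 3 higher (median -0.28, background 20.4% lower and 11.6% higher). These called probe sets included 8 of the 9 called in controls (88.9%), which is 15.7% of those called in NMU glands. The 3 higher were Cox5a (1.62, SE 0.44, limma adjusted p = 0.00737) and second probe sets of Atp5if1 and Atp5po. Ndufb3 was not called there (-0.06).

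The strain difference in the control change was tested directly, as the Cop change minus the F344 change. It shares all of its control arrays with the comparisons above. It was called for 22 members (21 genes), all positive, that is with a smaller fall or a rise in Cop (background 2.4% higher and 2.68% lower, limma). The median was 0.33 against -0.06 over all probe sets. All 5 complex II probe sets were among the 22, with 9 of complex I, 3 of complex III, 2 of complex IV and 3 of complex V. Ndufb3 differed by 0.63 (SE 0.11, limma adjusted p = 0.00164), Sdhd by 0.57 (SE 0.12), Sdhc by 0.62, Cyc1 by 0.65, Ndufs3 by 0.63 and Atp5pb by 0.37 (SE 0.093, limma adjusted p = 0.0216).

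This count moved with single arrays and with cell type markers. It was 7 without F344 control replicate 2 at 30 d, 8 without replicate 1 and 14 without replicate 3 of that group. It was 14 without F344 control replicate 1 and 13 without replicate 2 at 1 d, and 11 without Cop control replicate 2 at 6 h. Without Cop control replicate 1, 2 or 3 at 30 d it was 13, 12 or 10. With the skeletal muscle score as a covariate it was 0, while the median stayed at 0.27. The share of all probe sets called in that fit and in the fits without single arrays is not given. A loss of calls particular to the members was therefore not tested. In NMU glands 2 members were called (median 0.25, background 0.93% higher), Ndufb3 (0.75, SE 0.11, limma adjusted p = 0.000362) and the complex I subunit Ndufs7 (0.52).

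**Figure D3:**
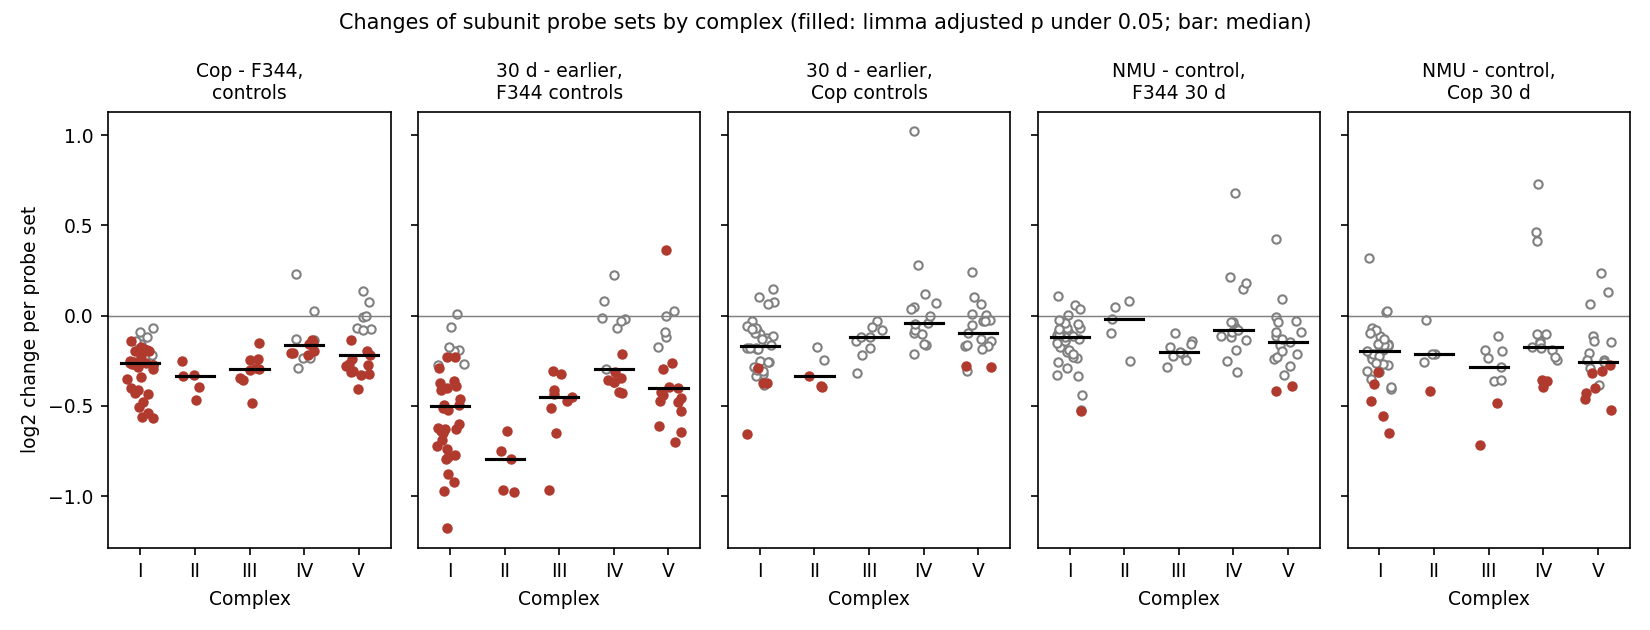
Log2 change of each tested subunit probe set by complex (I to V, horizontal axis) in 5 comparisons (panels); filled points passed limma's adjusted p under 0.05, open points did not, and bars are medians. Cox6a2 and Cox8b are left out of the panels because their changes lie beyond the axis, and filled points are dense in the panels for strain and for F344 controls at 30 d and sparse for NMU in F344.

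The muscle isoforms moved with skeletal muscle markers from array to array. Cox6a2 values in F344 controls were 9.44, 9.57 and 10.98 at 6 h, 9.90, 9.996 and 10.85 at 1 d, and 4.56, 6.92 and 5.21 at 30 d. In Cop controls they were 6.77, 4.93 and 6.48, then 6.13, 6.93 and 5.45, then 6.78, 6.94 and 7.11. The early F344 arrays were far above every other control array. Within F344 NMU glands at 1 d alone, Cox6a2 read 5.63, 10.56 and 8.99, while Ndufs1 read 10.43, 10.32 and 10.19.

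For each gene a slope was fitted within groups on the score of 28 skeletal muscle markers such as Ckm and Myh2, so that differences between groups did not enter. Cox6a2 had a slope of 1.13 log2 units per unit of score (SE 0.044, limma adjusted p = 8.21e-18) and Cox8b one of 1.10 (SE 0.052, limma adjusted p = 6.92e-16). The markers themselves had a median slope of 1.15, with a range from -0.054 to 1.767. They make up the score, so the average of their slopes was fixed in advance. The other 84 member probe sets had slopes between -0.20 and 0.062, with a median of 0.011, and none was called (background 1.68% of all probe sets). The slopes of the muscle forms lay within the wide range of the marker slopes.

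Between groups, the same score in F344 controls was 1.71 ± 0.61 at 6 h, 1.89 ± 0.41 at 1 d and -1.93 ± 1.27 at 30 d (SD, n = 3 each). In Cop controls it was -1.40 ± 0.90, -1.29 ± 0.73 and -0.51 ± 0.30 (SD, n = 3 each). Of the 28 muscle markers 26 were lower and 1 higher at 30 d in F344 controls, 17 were lower and 1 higher in Cop than in F344 controls, and 21 differed between strains in the change to 30 d. The higher marker was Tpm2 both times (0.70 in F344 to 30 d and 0.72 for strain), a tropomyosin of muscle. Cox6a2 fell by 4.56 (SE 0.92, limma adjusted p = 0.000547) and Cox8b by 3.66 (SE 0.91, limma adjusted p = 0.00342) in F344 controls to 30 d. The strain difference in that change was 5.39 for Cox6a2 (SE 1.30, limma adjusted p = 0.0202) and 4.84 for Cox8b (SE 1.28, limma adjusted p = 0.0297). With the muscle score as a covariate the changes in F344 were -0.37 for Cox6a2 and 0.43 for Cox8b, and the strain differences were 0.26 and -0.16, none of them called. With it, Ndufs1 still fell by 1.12, Sdhd by 0.99, Ndufb3 by 0.91 and Atp5pb by 0.71, all called. The count of members called in F344 was then 42 in place of 67, given without the share of all probe sets called in that fit.

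**Figure D4:**
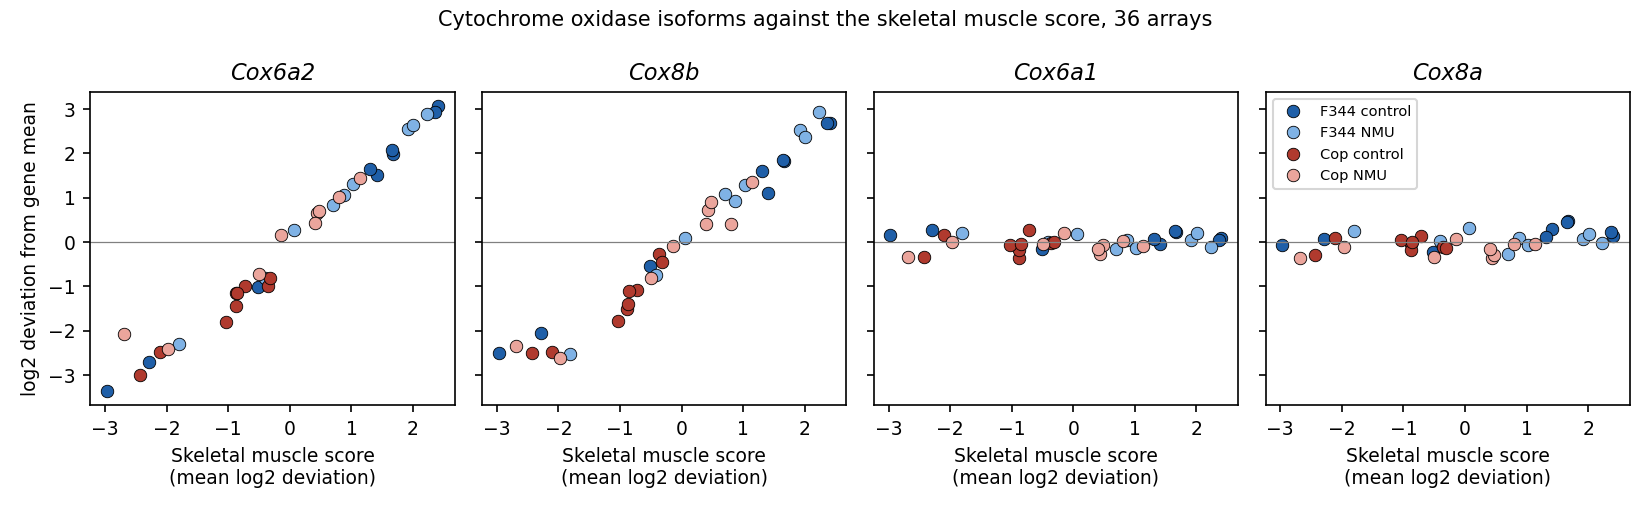
Log2 deviation of 4 cytochrome oxidase subunit genes from their own means (vertical axis) against the skeletal muscle marker score (horizontal axis), with 1 point for each of 36 arrays coloured by strain and treatment. Cox6a2 and Cox8b climb with the score, with slopes within groups of 1.13 and 1.10, and Cox6a1 and Cox8a stay near 0.

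Markers of fat and epithelium moved with the same comparisons. In F344 controls at 30 d, 11 of 17 adipocyte markers were lower (median -0.69), 16 of 20 luminal epithelial markers were higher (median 1.22), and all 4 tested brown fat markers were lower (median -1.05). Ucp1, which defines brown fat, was dim on every array, between 3.77 and 4.54. Skeletal muscle markers also fell in this comparison, and a part of muscle in the fall of the brown fat list was not tested. In the strain comparison 11 of 17 adipocyte markers were lower in Cop (median -0.30). In the same comparison 5 of 9 basal epithelial markers were higher and 1 lower (median 0.52), among them Mylk (0.56) and Acta2 (0.52) higher. Of 20 luminal markers 5 were higher and 1 lower (median 0.12), with Krt19 at 0.87 and Krt8 at 0.59, and 4 of 7 milk genes were higher (median 1.28), among them Csn2 (2.83). In Cop controls at 30 d, 6 of 17 adipocyte markers were lower and 0 of 20 luminal markers were called. Within groups, 0 members had a called slope on the adipocyte score (median slope 0.12 against 0.02 over all, background 2.08%). The brown fat score gave 0 as well (median slope 0.18, background 0.925%). Its largest member slopes were those of Cox6a2 (3.467, SE 1.145, limma adjusted p = 0.135) and Cox8b (3.186, SE 1.153, limma adjusted p = 0.176). Both genes also had called slopes on the skeletal muscle score. On the luminal score 3 were called (background 11.9%), Ndufa4l2 with a slope of -0.47 and a second probe set of Uqcrc2 (0.47) and Cox7a2l (0.27) with positive ones, and 0 without Cop NMU replicate 3 at 30 d. With the adipocyte score as a covariate the count was 37 for strain and 29 for F344 controls at 30 d. The share of all probe sets called in those fits is not given, so a loss of calls particular to the members was not tested. With the luminal score as a covariate Ndufs1 changed by -1.32 and Sdhd by -1.08 in F344. The part of these markers in the members' changes was not tested beyond these covariates.

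Genes of other mitochondrial functions were counted in the same comparisons, where the background over all probe sets was 12.9% lower and 13.1% higher for strain, 13.3% and 13.8% for F344 controls to 30 d, and 5.67% and 1.84% for Cop controls to 30 d. Of 17 genes of pyruvate dehydrogenase and the citric acid cycle, 15 were lower in Cop controls (median -0.41) and 16 fell in F344 controls to 30 d (median -0.80), with 11 in Cop controls (median -0.40). Among them, citrate synthase Cs fell by 0.97 and the pyruvate dehydrogenase subunit Pdha1 by 1.20 in F344. Of 20 fatty acid oxidation genes, 16 were lower in Cop, and in F344 to 30 d 10 fell and 2 rose, with 1 and 2 in Cop. Of 35 assembly factors of the complexes, 14 were lower and 1 higher in Cop, 25 fell in F344 to 30 d, and 13 fell and 1 rose in Cop to 30 d. Of 84 genes of the mitochondrial ribosome and protein import, 27 were lower and 1 higher in Cop, 47 fell and 2 rose in F344 to 30 d, and 26 fell in Cop to 30 d. Of 18 regulators of mitochondrial genes, 5 were lower and 4 higher in Cop, among them the coactivator Ppargc1a (-0.43) and the transcription factor Nrf1 (0.28). Esrra (-0.07), Gabpa (-0.07) and Tfam (-0.08) were not called in the strain comparison.

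Between 6 h and 1 d, controls of both strains had 2 called members. Ndufa9 of complex I (0.37, SE 0.077, limma adjusted p = 0.0406) and Cox5b of complex IV (0.36, SE 0.077, limma adjusted p = 0.0429) were higher at 1 d, against a background of 0.101% higher. Of the 86 probe sets 80 had positive changes (median 0.19 against 0.004 over all), and 51 had an unadjusted p under 0.05, against 2435 of all 20749 probe sets. Leaving out single arrays gave counts from 0 to 6. The count was 0 with any F344 or Cop control at 6 h left out except Cop replicate 3. It was also 0 without F344 control replicate 1 or 2 or Cop control replicate 1 or 2 at 1 d, 1 without Cop replicate 3 at 1 d and 6 without F344 replicate 3 at 1 d. With the replicate number as a block it was 0. The share of all probe sets called in these other fits is not given.

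At 30 d after NMU some subunit transcripts were lower than in saline controls. In Cop 18 members (17 genes) were lower and 0 higher (limma), against a background of 5.48% lower and 4.42% higher, with a median of -0.21 against -0.01 over all. By complex, 5 were in complex I, 1 in II, 2 in III, 3 in IV and 7 in V. Every NMU array lay below every control array for 32 of the 86 members (9.08% of all probe sets).

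Atp5pb had the smallest p in this comparison. Cop controls at 30 d read 11.56, 11.65 and 11.63, and Cop NMU glands 11.24, 11.30 and 11.01. The groups did not overlap, and the difference was -0.43 (SE 0.076, limma adjusted p = 0.0012). Atp5f1a, the alpha subunit of the catalytic head, read 11.19, 11.31 and 11.25 in controls and 10.79, 10.95 and 10.44 after NMU, a difference of -0.52 (SE 0.11, limma adjusted p = 0.00421). Uqcrc2, a core protein of complex III, differed by -0.48 (SE 0.096) and by -0.72 on a second probe set. The iron-sulphur subunit Ndufs8 differed by -0.65 (SE 0.15, limma adjusted p = 0.00668), Ndufab1 by -0.56, Atp5mg by -0.46 and Cox6b1 by -0.40. Replicate 3 of the Cop NMU glands was the lowest of its group for Atp5pb and Atp5f1a. Over whole complexes, replicate 1 was the lowest for complexes I, III and IV (scores of -0.58, -0.54 and -0.42, against -0.49, -0.53 and -0.04 in replicate 3), and replicate 3 for complexes II and V. Replicate 1 also stood apart over all probe sets, and without it 15 members were called, given without the share of all probe sets called. Its root mean square log2 differences from replicates 2 and 3 (0.544 and 0.583) were the largest of all replicate pairs. By the lymphocyte marker score, replicate 1 (0.88) stood near the Cop controls at 30 d (1.10, 0.55 and 0.77). Replicates 2 and 3 (-2.47 and -2.25) stood far below those controls.

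Without replicate 3 of the Cop NMU glands 1 member was called, without Cop NMU replicate 2 at 30 d 29 were, and without Cop control replicate 3 at 30 d 8 were. A model of these 6 arrays alone, with fewer arrays behind its spread, called 0. For that fit and the fits without single arrays the share of all probe sets called is not given. A loss of calls particular to the members was therefore not tested. In the same comparison 9 of 13 lymphocyte markers, 4 of 7 milk genes, 2 of 20 luminal and 2 of 9 basal epithelial markers were lower, and 3 of 17 adipocyte markers were higher. The luminal score in Cop NMU glands at 30 d was 0.46, 0.01 and -1.21, the last in replicate 3. With the luminal score as a covariate 2 members were called, given without the share of all probe sets called in that fit. Of the genes of the mitochondrial ribosome and import, 24 of 84 were lower in the same comparison. Most genes of the citric acid cycle, fatty acid oxidation and complex assembly were not called, among them Cs (0.12), Hadha (-0.06) and Surf1 (-0.13). Idh3g of the cycle (-0.36) and the assembly factor Cox14 (-0.48) were called lower.

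In F344 at 30 d, 3 members were lower after NMU (background 2.63% lower), 72 of 86 had negative differences, and the median was -0.12 against -0.02 over all, so their share of 3.49% was near the background. Ndufs8 read 9.36, 8.84 and 9.34 in controls and 8.62, 8.56 and 8.77 after NMU, and differed by -0.53 (SE 0.15, limma adjusted p = 0.0428). Atp5f1a differed by -0.39 (SE 0.11, limma adjusted p = 0.0427). Atp5if1 went from 9.82, 9.55 and 9.59 to 9.24, 9.26 and 9.23, a difference of -0.42 (SE 0.10, limma adjusted p = 0.0229). These are the same control arrays in which it was high above. A second probe set of Atp5if1 went the other way and was not called (0.42, SE 0.14, limma adjusted p = 0.094). Its means were 5.05 after NMU and 4.63 in controls. For the 3 called members every NMU array lay below every control array, as for 13 of the 86 members (12.5% of all probe sets). Cox6a2 (2.80, SE 1.06, limma adjusted p = 0.145) and Cox8b (2.24, SE 1.05, limma adjusted p = 0.244) were not called, and no muscle marker was called, with a median marker difference of 2.38. Among F344 arrays at 30 d, the count was 0 when either NMU array 1 or 2, or either control array 1 or 3, was left out, and 11 without control array 2. It was 0 with the muscle score as a covariate. The counts of that fit and of the fits without single arrays are given without the share of all probe sets called.

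The response to NMU at 30 d was not shown to differ between strains. For the strain difference 0 members were called by limma (background 0% of all probe sets), 1 had an unadjusted p under 0.05, and the median was -0.11 (Cop response minus F344 response) against 0.02 over all.

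At 6 h and 1 d after NMU no member was called in either strain by limma. In F344 at 6 h the median was 0.02 against 0.07 over all (background 0.622%, 2 members with an unadjusted p under 0.05). The smallest p values in each direction were those of Cox4i2, the lung-type isoform of subunit 4, at -0.49 and Atp5if1 at 0.22. In Cop at 6 h, where 6.57% of all probe sets were called, the median was -0.04 and 11 members had an unadjusted p under 0.05. Ndufb3 (-0.27, SE 0.089, limma adjusted p = 0.0653), Sdha (-0.28, SE 0.097, limma adjusted p = 0.0887) and Ndufa4l2 (0.45, SE 0.17, limma adjusted p = 0.111) came nearest to the threshold. With the adipocyte score as a covariate 1 member was called, and after quantile normalization 2 were, given without the share of all probe sets called.

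In F344 at 1 d, 77 of 86 probe sets had negative differences (median -0.12 against -0.004 over all, background 0.983%), and 16 had an unadjusted p under 0.05. Sdhd read 11.49, 11.46 and 11.29 in controls and 11.19, 11.22 and 10.94 after NMU, which did not overlap, with a difference of -0.30 (SE 0.098, limma adjusted p = 0.193). Ndufab1 differed by -0.42 (SE 0.14, limma adjusted p = 0.195) and Atp5if1 by 0.25. Without F344 NMU replicate 2 at 1 d, 1 member was called, given without the share of all probe sets called in that fit. In Cop at 1 d 71 were negative (median -0.09, background 0.761%) and 5 had an unadjusted p under 0.05, with Ndufa5 at -0.27 (SE 0.12, limma adjusted p = 0.379). For the strain difference in response, 0 members were called at 6 h (background 0.877%) and 0 at 1 d (background 0.207%), with 2 at an unadjusted p under 0.05 at each time.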

How the data were processed

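Rat mammary gland RNA was hybridised to 36 Affymetrix arrays, 3 in each of 12 groups of strain, treatment and time, with groups taken from the labels. Per the submitters' processing notes the authors used GCOS. Neither its version, nor a summarization method, nor a genome build is named there or in the labels. Deposited values are log2 expression values per probe set (2.46 to 14.3), with array medians from 5.66 to 5.77, and were used as deposited. The number of arrays limits the precision. By the platform annotation 20832 of 31099 probe sets carry 1 symbol, 436 several and 9831 none, and a probe set with several symbols was no member. Probe sets can also bind near-identical copies of a gene.

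Probe sets above the 40th percentile of their own array on at least 3 arrays were kept (20749, with 10293 left out as dim and 57 controls removed). The model had a mean per group over all arrays and was run in limma 3.58.1 under R 4.3.3 (trend and robust empirical Bayes), with two-sided tests and Benjamini-Hochberg adjustment over all probe sets within each of 14 comparisons. Called means an adjusted p under 0.05. The scripts were tested on simulated data. Scores are mean log2 deviations over a list. Within-group slopes were fitted with the group means in the model.

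The members and lists were chosen with earlier results of these data known. Genes were named by rule: isoform families and Sdha to Sdhd always, the 5 largest called changes in each direction, the smallest p of each complex, and the 2 smallest p per direction where none was called. The ETS, MEF2, TATAAA and CCAAT motifs, the added covariates, single times and NMU-gland versions were chosen after seeing the data. Protein sequences were not used here. Replicate numbers were taken as pairs where deviations of same-numbered arrays all correlated above 0.1, which was so in Cop at 6 h (0.114, 0.142, 0.435) and at 1 d (0.202, 0.424, 0.315). No 2 arrays held identical values. Alternatives were quantile normalization, other filters, plain empirical Bayes, marker score covariates, the replicate block, the compared arrays alone and leaving out each array.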

Additional observations from a re-analysis of the deposited data

Results flagged for a closer look

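The strain difference in the control change from the early times to 30 d (Cop change minus F344 change) was tested as an interaction and was called for 22 members. The called differences that were named were 5.39 for Cox6a2, 4.84 for Cox8b, 0.65 for Cyc1, 0.63 for Ndufs3, 0.63 for Ndufb3, 0.57 for Sdhd, 0.62 for Sdhc and 0.37 for Atp5pb, each with an adjusted p from limma under the threshold. The groups have 3 arrays each, too few for a test of single arrays that stand apart.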

How the results depend on the processing

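Counts below are of called members, and the share of all probe sets called in the same alternative fit is not given beside them. Without the trend and robust options, 0 were called for 1 d against 6 h, as without the filter on dim probe sets and with the replicate block. Quantile normalization gave 1 for NMU in F344 at 30 d, 2 for NMU in Cop at 6 h and 7 for 1 d against 6 h, and no filter gave 1 for NMU in F344 at 30 d. The skeletal muscle covariate gave 0 for NMU in F344 at 30 d, 42 for F344 controls at 30 d and 0 for the strain difference in that change. The changes of Cox8b then turned to -0.35 (NMU in F344 at 30 d), 0.43 (F344 controls) and -0.16 (strain difference). The luminal covariate gave 0 for NMU in F344 and 2 for NMU in Cop at 30 d, 15 for Cop controls and 6 for the strain difference in the control change. The adipocyte covariate gave 0 for NMU in F344 at 30 d, 1 for NMU in Cop at 6 h, 1 for the strain difference in NMU response at 6 h, 37 for strain, 11 for 1 d against 6 h, 29 for F344 controls, 2 for Cop controls and 2 for the strain difference in the control change. A model of the compared arrays alone, with fewer arrays behind its spread, gave 0 for NMU at 30 d in F344 and 0 in Cop, 7 for 1 d against 6 h and 2 for Cop controls. Strain gave 37 at 1 d alone and 0 at 30 d alone, where Cox6a2 (1.38), Cox8b (1.10), Sdhc (0.087) and Sdha (0.01) changed sign. NMU glands gave 51 for the Cop change to 30 d, 2 for the strain difference in the change and -0.28 for Atp5if1 in F344. Except where another value shows it, the cause was not tested.

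Leaving out each array in turn gave 0 to 1 for NMU in F344 at 1 d, 0 to 11 at 30 d, 1 to 29 for NMU in Cop at 30 d, 60 to 70 for strain, 0 to 6 for 1 d against 6 h, 56 to 68 for F344 controls, 5 to 11 for Cop controls and 7 to 26 for the strain difference in the change. It gave 0 to 1 for the adipocyte slope and 0 to 4 for the luminal slope. The replicate block changed no other count by over 1.5 times. It gave 66 for strain, 67 for F344 controls, 9 for Cop controls and 21 for NMU in Cop at 30 d. The block also gave 19 for the strain difference in the change and 3 for NMU in F344 at 30 d. For NMU in Cop at 6 h and at 1 d it gave 0. There the replicate numbers were taken as pairs by the correlation rule above, and the labels state no pairing. Of 1681 recomputed values of named genes, 1460 kept their direction and side of the threshold, 210 lost and 3 gained a call, and 8 turned.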

Other observations

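The probe set of Cox5a, a nuclear-encoded subunit of complex IV, did not follow the other members. It was the only tested member probe set besides Cox6a2 and Cox8b with an SD over the arrays above 0.572. In Cop controls it read 5.63, 5.77 and 6.09 at 6 h, 6.02, 6.52 and 6.51 at 1 d, and 6.01, 8.30 and 7.02 at 30 d, and in Cop NMU glands at 30 d 8.14, 7.55 and 7.83. F344 NMU replicate 1 at 1 d (8.60) and F344 control replicate 3 at 30 d (8.06) also stood well above their groups. This probe set was chosen for mention after its values were seen, and a second probe set of the gene carries several symbols and was no member.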
